A study of Mus musculus with 6 samples.

Results

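The cell cycle genes described here were 64 gene symbols, measured by 123 of the 45281 probes of an Illumina mouse bead array. They were chosen by a rule on names that used no measured value, although earlier results of these data were known. The names were the A, B, D and E cyclins (Ccn), the cyclin-dependent kinases (Cdk, with Cdk1 under its older symbol Cdc2a), the kinase inhibitors (Cdkn), the MCM helicase subunits, the centromere proteins (Cenp), the aurora and polo-like kinases, the Cdc25 phosphatases, the E2F factors, and Cdc6, Cdc20, Bub1, Bub1b, Pcna, Top2a and Mki67. The arrays held RNA from cortical bone tubes of tibia and femur of C57BL6 mice aged 3 months, with no genetic change in either group. The tubes had been cut below the growth plates, flushed of marrow and digested repeatedly with collagenase and trypsin to strip the surface cells, which leaves mainly osteocytes in the mineralized matrix. The 3 control arrays (Ctr) came from tubes cultured without hormone, and the 3 PTH arrays (Pth) from tubes given 250 nM PTH 1-34, the active N-terminal part of parathyroid hormone, for 24 h. Each preparation combined the bones of more than 1 mouse. The labels do not say that the preparations of a group came from separate sets of mice, so the p-values measure only the spread between these arrays, which may be technical.

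A cell divides after passing through a phase of growth, a phase of DNA replication and mitosis. Cyclins switch on the cyclin-dependent kinases, and the Cdkn proteins hold these kinases back. Active kinases release the E2F factors, which turn on genes for replication such as the MCM helicase, and later the polo-like and aurora kinases and the centromere proteins carry out mitosis. Osteocytes are the terminal stage of the osteoblast lineage and are regarded as non-dividing cells. PTH acts through a receptor that osteocytes and osteoblasts carry and that raises cAMP.

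Cell cycle transcripts were measurable in the bone tubes of both groups. A probe counted as above background on an array at a detection p under 0.05. By at least 1 probe, 45 of the 64 genes exceeded background on all 6 arrays and 9 on some arrays only, and 10 did so on none. The 10 were Aurkc, Bub1, Ccna1, Ccnb2, Ccnb3, Cdk3, Cdkn1b, Cenpe, Cenpo and Mcm8. A probe was tested only if 3 or more of the 6 arrays showed it above background, and 51 cell cycle genes had such a probe. In addition to the 10, Cdkn2a, Cenpf and E2f7 did not pass. Cdk6 passed through its 3 control arrays with no PTH array above background, and Cenpj passed with 3 PTH arrays and 1 control array above background. Between 75 and 81 of the 123 probes of these genes were above background on each array, with overlapping ranges in the groups. Over all probes the share was 34.2% to 38.4%, and the median raw signal was 111.3 to 128.9.

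No cell cycle gene passed the test for a change with PTH. With limma, 0 of 51 genes reached an adjusted p under 0.05 with a difference of at least 1.5-fold, against 1.73% of all 11979 genes tested, and the smallest adjusted p was 0.117, for E2f1. Each gene was taken at its brightest tested probe. At an unadjusted p under 0.05, 12 cell cycle genes were higher with PTH, against 7.51% of all genes, and 1, Cdk6, was lower, against 7.39%. Cdk6 was tested only through its control arrays. The 12 are 23.5% of the 51 genes. They became 6 without control replicate 2 or PTH replicate 2, 7 without PTH replicate 1, and 4 when arrays were scaled by their medians. With quantile normalization alone they became 15. Over all genes, those called fell too in the runs with lower counts, from 207 to 53, 48, 76 and 104, in the same order. The share of all genes at an unadjusted p under 0.05 is not given for these runs. In the methods' t-test with Benjamini-Hochberg adjustment the count was again 0.

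The values of the cell cycle genes lay mostly above those of the controls, by small amounts. The difference between the means of normalized log2 signal, PTH minus control, was above 0 for 36 of the 51 genes and below 0 for 15. Its median was 0.20, with quartiles at -0.03 and 0.31, whereas over all genes tested the median was 0.01, with quartiles at -0.16 and 0.17. Without control replicate 2 the median of the cell cycle genes was 0.12, and with quantile normalization and no background correction 0.13. All 3 PTH arrays lay above all 3 control arrays for 17 of 51 genes, or 33.3%, against 11.1% of all genes. They lay below for 2, Cdk6 and Ccnd3, or 3.92%, against 10.8%, and Cdk6 was tested only through its control arrays. Since the filter kept genes by their signal on these arrays, the same was counted with all 64 genes and no filter. There 42 of 64 were above 0, the median was 0.11 against 0.0018 for all 31508 genes, and 18 genes, or 28.1%, had PTH arrays above the controls, against 7.34%. On the lower side, 4 of the 64 had PTH arrays below the controls, against 7.22% of all genes, a narrower gap than with the filter. When the arrays were scaled by their medians in place of quantiles, 9 of the 17 genes still had groups that did not overlap (Bub1b, Cdc2a, Cdkn1c, Cenpa, Cenpi, E2f1, Mcm3, Plk1 and Plk3), or 17.6% of 51 against 8.14% of all genes. That scaling moved the median of all genes to 0.12 and that of the cell cycle genes to 0.32, a gap of 0.20 between them.

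**Figure D1:**
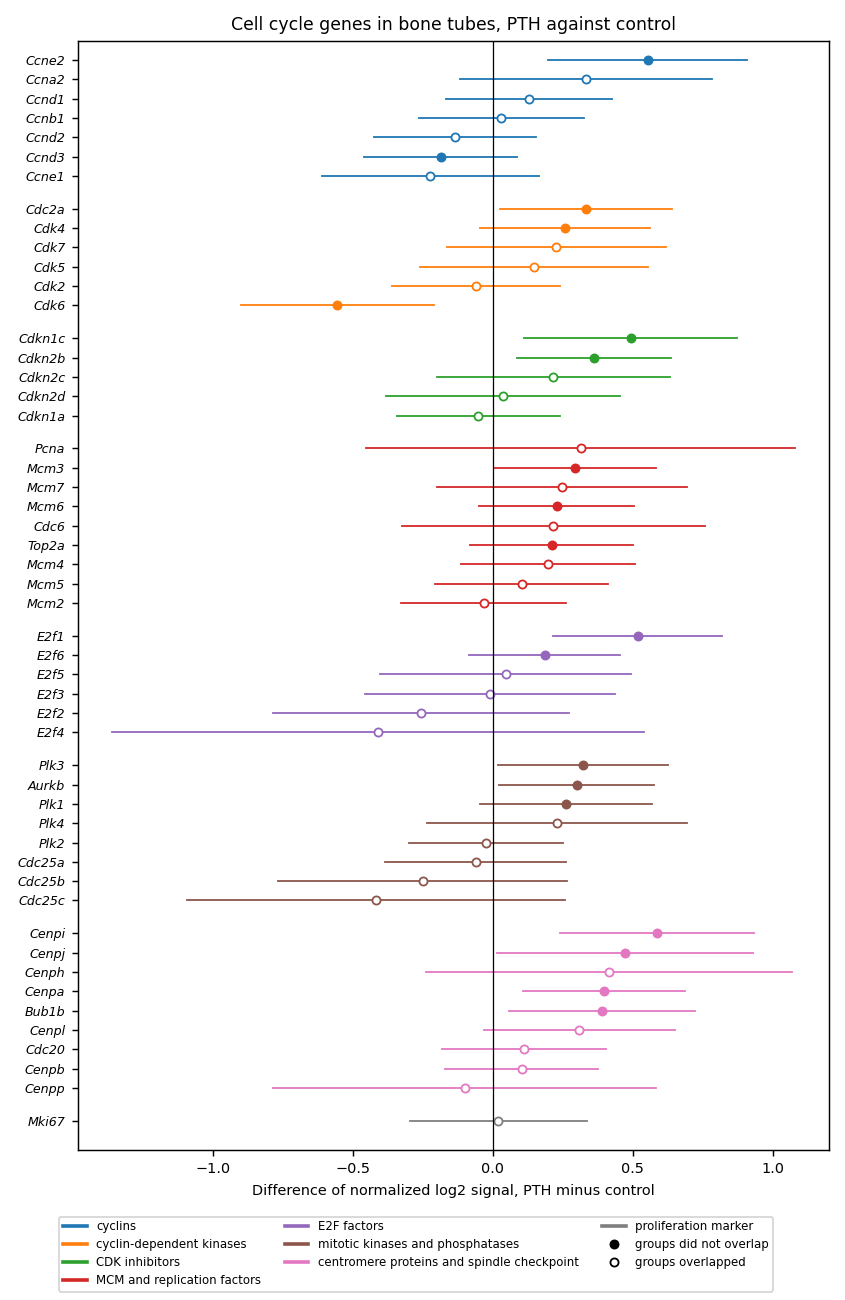
Difference of normalized log2 signal, PTH minus control, for the 51 cell cycle genes tested, grouped by role. Points are the differences between means of 3 arrays a group and bars the 95% intervals of the limma fit, and a filled point marks a gene whose groups did not overlap. Most points lie between 0 and 0.6, and Cdk6, at -0.55, was not above background on the PTH arrays.

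**Figure D2:**
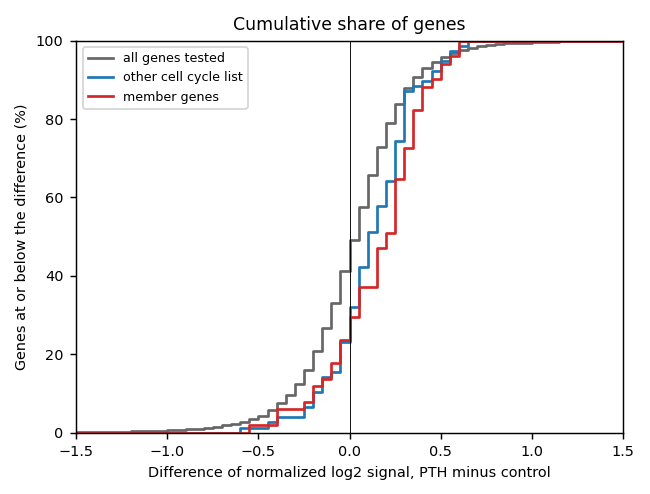
Cumulative share of genes in percent against the difference of normalized log2 signal, PTH minus control, for all 11979 genes tested, the 51 cell cycle genes and 78 other cell cycle genes from a separate list. The curve of the cell cycle genes is to the right of the curve of all genes over most of the range, with medians of 0.20 and 0.01.

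The distance between the groups was present on every array. For each array the deviation of every gene from its control mean was taken, and the median over the 51 genes was 0.03, 0.01 and -0.03 for the controls, compared with 0.14, 0.17 and 0.16 for PTH. The 3 PTH values were close to each other and all above the control values. Over all genes tested the same medians were between -0.01 and 0.01 on the 6 arrays. The genes differed by role in how far they lay from the controls. The centromere and spindle checkpoint genes that were tested had the highest median on each PTH array, with 0.40, 0.27 and 0.35, an order that was not kept under other settings given with this role. The cyclins had 0.02, 0.05 and -0.07 on the PTH arrays and -0.01, -0.02 and 0.06 on the control arrays, so the groups overlapped.

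**Figure D3:**
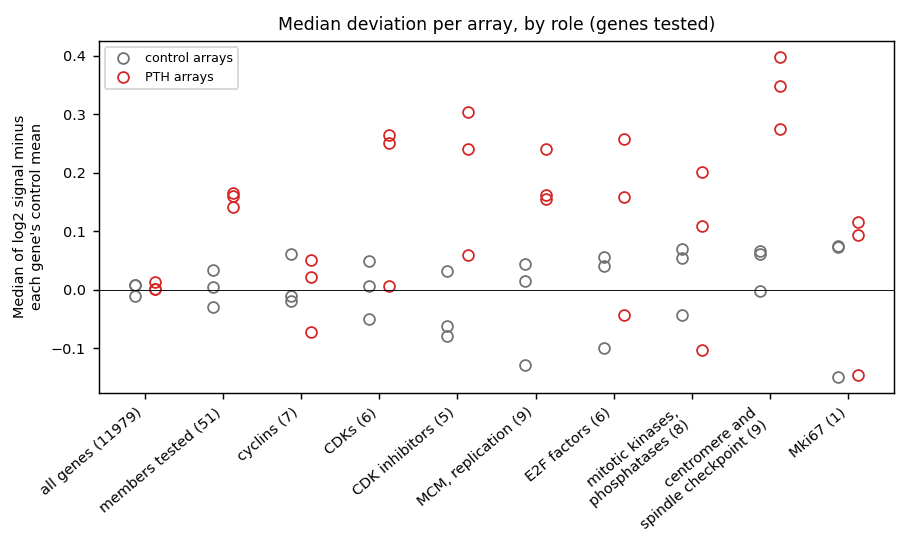
Median over genes of the deviation of log2 signal from each gene's control mean, for each array and role, with the number of genes tested in brackets. Grey circles are the 3 control arrays and red circles the 3 PTH arrays. The PTH arrays lie above all control arrays for the 51 cell cycle genes together, for the CDK inhibitors, for the MCM and replication factors and for the centromere and spindle checkpoint genes.

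Among the 10 cyclins, 7 were tested and their median difference was 0.03, which became -0.05 when all 10 were counted without the filter. The cyclin with the highest value was Ccne2, the E-type cyclin that drives Cdk2 at the start of replication. Its normalized log2 signal was 6.82, 6.96 and 6.71 in the controls and 7.16, 7.61 and 7.38 with PTH, so the groups did not overlap. The difference was 0.55 (SE 0.15, n = 3 arrays a group), or 1.47-fold, with an adjusted p of 0.149. Its relative Ccne1 did not share that pattern, with 5.83, 6.14 and 6.08 in the controls and 5.56, 6.07 and 5.75 with PTH. Ccnd1, the D-type cyclin that answers to growth signals and the brightest cyclin probe, had 11.37, 11.43 and 11.55 in the controls and 11.72, 11.50 and 11.52 with PTH. The groups overlapped, the difference was 0.13 and its 95% interval ran from -0.17 to 0.43. A dimmer Ccnd1 probe had 8.18, 8.24 and 8.24 against 8.57, 8.51 and 8.46, a difference of 0.29 with groups that did not overlap (adjusted p = 0.287), and the remaining probe differed by -0.02. The other D-type cyclins were on the lower side. Ccnd2 differed by -0.13 at its brightest probe and by -0.47 at a dimmer one, where the groups did not overlap and the unadjusted p was 0.00765 (adjusted p = 0.154). Ccnd3 differed by -0.19, with PTH arrays between 9.90 and 9.99 and controls between 10.02 and 10.18. A dimmer tested probe of Ccnd3 differed by 0.04, with overlapping groups. For the mitotic cyclins, Ccnb1 differed by 0.03 and Ccna2, above background on 1 control and 2 PTH arrays, by 0.33.

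Of the 7 cyclin-dependent kinases 6 were tested. Cdc2a (Cdk1), the kinase of mitotic entry, had 8.71, 8.48 and 8.46 in the controls and 8.81, 9.01 and 8.82 with PTH. All PTH arrays were above all control arrays, by 0.33 (SE 0.13) or 1.26-fold, with an adjusted p of 0.300. Cdk4, the partner of the D-type cyclins, had control values from 8.94 to 9.22 and PTH values from 9.33 to 9.44. A dimmer Cdk4 probe differed by -0.08, with overlapping groups. The brightest probe of Cdk2 showed no such gap, with 9.66, 9.71 and 9.77 against 9.80, 9.49 and 9.67, although its faintest tested probe differed by 0.61, with control values from 5.22 to 6.05 and PTH values from 6.20 to 6.26. Cdk6, the second partner of the D-type cyclins, was the only member lower with PTH at an unadjusted p under 0.05 by its brightest tested probe. Its values were 5.22, 5.50 and 5.04 in the controls and 4.64, 4.72 and 4.74 with PTH, all of the latter below the background limit. Only a bound can therefore be given, at least 1.14-fold lower with PTH. The limma adjusted p of 0.136 belongs to the difference of -0.55 between the values as measured, not to the bound. The probe passed the filter only through its control arrays, where it was higher, so its p is no support for a fall. Cdk5 and Cdk7 differed by 0.15 and 0.23, with overlapping groups.

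Of the 7 inhibitors of these kinases, 5 were tested, and their median difference was 0.22, or 0.06 over all 7 without the filter. Cdkn1c (p57), an inhibitor of the cyclin E and cyclin A kinases, had 6.95, 7.25 and 7.005 in the controls and 7.57, 7.80 and 7.31 with PTH. The groups did not overlap and the difference was 0.49 (SE 0.16), or 1.41-fold, with an adjusted p of 0.217. Cdkn2b (p15), an inhibitor of Cdk4 and Cdk6, had controls of 8.44, 8.29 and 8.38 and PTH arrays of 8.67, 8.82 and 8.71. Its difference was 0.36 (SE 0.12), 1.29-fold, with an adjusted p of 0.210. Cdkn1a (p21), a target of p53 and the brightest inhibitor probe, had 10.83, 11.05 and 10.81 in the controls and 10.83, 10.91 and 10.81 with PTH. The groups overlapped throughout, and the 95% interval of the difference ran from -0.34 to 0.24. Cdkn2c and Cdkn2d differed by 0.22 and 0.04, with overlapping groups.

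The MCM and replication factors had small differences that were nearly all above 0. Of 10 genes 9 were tested, 8 of the 9 were above 0, and the median was 0.22. Mcm2 to Mcm7 form the helicase that opens the DNA at replication origins. The PTH arrays were above the controls for Mcm3, by 0.29 (SE 0.12, adjusted p = 0.328), and for Mcm6, by 0.23 (SE 0.12, adjusted p = 0.437). Mcm6 had 9.94, 10.08 and 10.08 in the controls and 10.25, 10.19 and 10.35 with PTH. Dimmer tested probes of Mcm6 differed by 0.18 and -0.08, with overlapping groups. Mcm4, the brightest probe of the group, had 10.74, 10.67 and 10.99 against 11.01, 11.07 and 10.91, and differed by 0.20 with overlapping groups. Mcm2 was the exception, with 9.09, 9.01 and 8.92 in the controls, 8.98, 9.10 and 8.85 with PTH, and a difference of -0.03 that was 0.13 under median scaling. Top2a, the topoisomerase of replicating and dividing cells, had control values from 9.27 to 9.49 and PTH values from 9.56 to 9.71. Pcna, the sliding clamp of the DNA polymerases, had the highest difference of the group at 0.31 and also the widest spread, with 7.41, 6.27 and 6.69 in the controls and 6.93, 6.74 and 7.65 with PTH (SE 0.33). Mcm5, Mcm7 and Cdc6, which loads the helicase, differed by 0.10, 0.25 and 0.22.

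The E2F factors did not share a direction. E2f1, an activator of replication genes, had the smallest p of the 51 genes. Its values were 8.01, 7.97 and 7.86 in the controls and 8.64, 8.36 and 8.39 with PTH. Every PTH array was above every control array, by 0.52 in the mean (SE 0.13, 95% interval 0.22 to 0.82), or 1.43-fold, with an adjusted p of 0.117. With quantile normalization and no background correction its adjusted p was 0.0183 and that of Cenpa 0.0213, at differences under 1.5-fold. The other activators had overlapping groups, with -0.26 for E2f2 and -0.01 for E2f3. E2f6, a repressor, had the brightest E2F probe and differed by 0.19, with controls of 9.34, 9.43 and 9.35 and PTH arrays of 9.63, 9.54 and 9.50. Dimmer tested probes of E2f6 differed by -0.12 and 0.06, with overlapping groups. E2f4, which serves repression in resting cells, had the most uneven PTH arrays, with 5.32, 6.59 and 7.15 against 6.77, 6.91 and 6.60. Its difference of -0.41 (SE 0.41) became 0.11 without PTH replicate 1. E2f5 differed by 0.05.

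Among the mitotic kinases and phosphatases, 4 of 5 kinases and 0 of 3 phosphatases tested had a difference above 0 at the brightest probe, and none passed the test. Plk1, which drives entry into mitosis and is the brightest of the group, had 9.23, 9.29 and 9.12 in the controls and 9.64, 9.46 and 9.33 with PTH. The groups did not overlap, and the difference was 0.26 (SE 0.13, adjusted p = 0.422). Plk3, a polo-like kinase with roles in stress responses, had 8.09, 8.07 and 7.82 against 8.41, 8.26 and 8.28, a difference of 0.32 (SE 0.13, adjusted p = 0.308). Aurkb, the aurora kinase that corrects chromosome attachment, had control values from 8.12 to 8.25 and PTH values from 8.38 to 8.56, and its difference was 0.30 (adjusted p = 0.301). Plk2 and Plk4 differed by -0.02 and 0.23, with overlapping groups. The Cdc25 phosphatases remove the inhibitory phosphates from the kinases, and their brightest probes differed by -0.06 for Cdc25a, -0.25 for Cdc25b and -0.42 for Cdc25c. The Cdc25b probe was above background on only 2 control arrays and 1 PTH array. A dimmer Cdc25a probe, above background on 1 control array and 2 PTH arrays, differed by 0.19 with overlapping groups. Cdc25c gave opposite values at its probes. The brighter one had 6.04, 5.61 and 5.93 in the controls and 4.81, 6.02 and 5.49 with PTH, and the dimmer one had 5.18, 4.87 and 5.30 against 5.56, 5.67 and 5.63, a difference of 0.51 with an adjusted p of 0.165.

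Of the 13 centromere and spindle checkpoint genes 9 were tested, and 8 of the 9 were above 0. At an unadjusted p under 0.05 in limma, 4 of the 9 (44.4%) were higher, against 7.51% of all genes. The median was 0.39. This was the highest median of the roles, but not without the filter, where it was 0.11 over all 13 genes against 0.21 for the MCM and replication factors, nor under quantile normalization alone, where it was 0.16 against 0.17. Cenpa, the histone variant that marks the centromere and the brightest cell cycle probe of this role, had 11.27, 11.52 and 11.36 in the controls and 11.78, 11.84 and 11.73 with PTH. Every PTH array was above every control array, and the difference was 0.40 (SE 0.12), or 1.32-fold, with an adjusted p of 0.197. Cenpi, a protein of the inner kinetochore, had the largest difference of all cell cycle genes tested. Its values were 6.04, 5.99 and 5.90 in the controls and 6.80, 6.33 and 6.56 with PTH, a difference of 0.59 (SE 0.15) or 1.503-fold, with an adjusted p of 0.121. A second, fainter probe of Cenpi differed by -0.05 with overlapping groups. Bub1b, the BubR1 kinase of the spindle checkpoint, had 8.24, 8.29 and 7.97 against 8.70, 8.43 and 8.55, a difference of 0.39 (adjusted p = 0.259), whereas its fainter probe differed by 0.0044. Cenpj, a centriole protein despite its name, differed by 0.47 (adjusted p = 0.324). It is among the 4 genes, and it was above background on 3 PTH arrays but only 1 control array. Cenph and Cenpl differed by 0.42 and 0.31, and Cdc20, the activator of the anaphase-promoting complex, and Cenpb by 0.11 and 0.10. Cenpp was the only one below 0, at -0.10 (SE 0.30), with 6.81, 6.23 and 6.94 in the controls and 5.95, 6.98 and 6.76 with PTH, and it was 0.02 under median scaling.

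**Figure D4:**
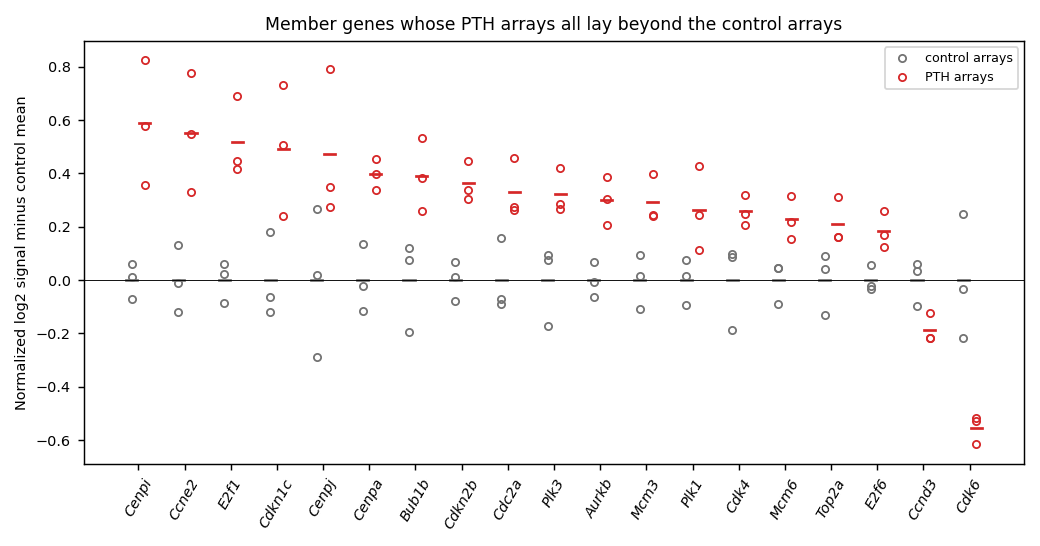
Normalized log2 signal on each array minus the gene's control mean, for the 19 cell cycle genes whose groups did not overlap. Grey circles are the 3 control arrays, red circles the 3 PTH arrays and short lines the group means. In 17 genes the PTH arrays are above the controls and in Ccnd3 and Cdk6 below, and Cdk6 was not above background on the PTH arrays.

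Mki67, the antigen used most widely to mark dividing cells, did not follow the centromere genes. Its normalized log2 signal was 8.61, 8.62 and 8.39 in the controls and 8.66, 8.64 and 8.40 with PTH. Each group had 2 higher arrays and 1 lower one, and the groups overlapped throughout. The difference was 0.02, with a 95% interval from -0.30 to 0.34 and an adjusted p of 0.965.

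Probes of one gene often differed from each other. In 19 genes more than 1 probe was tested, and all probes were on the same side of 0 in 10 of them. In Ccnd1, Ccnd3, Cdc25a, Cdc25c, Cdk2, Cdk4, Cenpi, E2f6 and Mcm6 they were on both sides. The range of the difference among the probes of a gene was 0.07 in Ccnb1, 0.92 in Cdc25c and 0.31 in the median gene, which is more than the median difference between the groups. The probes of Cdkn1a all lay below 0, at -0.05, -0.23 and -0.21, and the 4 of Cdc20 all above it, from 0.0041 to 0.38.

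**Figure D5:**
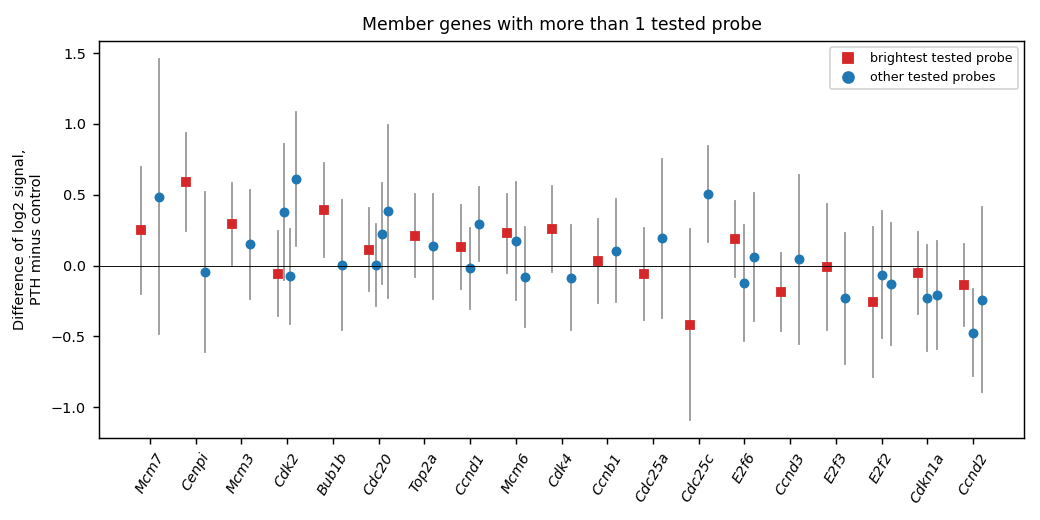
Difference of normalized log2 signal, PTH minus control, for each tested probe of the 19 cell cycle genes with more than 1 tested probe. Red squares are the brightest probe, which stands for the gene, blue circles the other probes, and bars the 95% intervals of the limma fit. In 9 genes the probes lie on both sides of 0.

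Other genes of the cell cycle, from a list of 94 symbols on the array that holds none of the genes above, were examined in the same way. Of these, 78 were tested, 0 were called by limma against 1.73% of all genes, and 7 (8.97%) were higher and 2 (2.56%) lower at an unadjusted p under 0.05, against 7.51% and 7.39% of all genes. In the methods' t-test with Benjamini-Hochberg adjustment the count was also 0. The median difference was 0.08, 53 genes were above 0, and the PTH arrays were above the controls for 14 (17.9%), against 11.1% of all genes, and below for 4 (5.13%), against 10.8%. Of 20 genes of origin licensing and replication, 17 were above 0 and 6 had PTH arrays above all controls. Lig1, which joins the fragments of the newly made strand, had 8.11, 7.85 and 8.06 in the controls and 8.53, 8.59 and 8.71 with PTH, a difference of 0.60 (SE 0.13) or 1.52-fold, with an adjusted p of 0.0749. Mcm10, a partner of the MCM helicase, differed by 0.54 (SE 0.12, adjusted p = 0.0864). Of 25 mitotic factors, 20 were above 0, with a median of 0.15. The 12 genes of growth control and quiescence had a median of -0.03, with 6 above 0 and 6 below, and the 13 checkpoint and p53 genes had a median of -0.09. Among them Gadd45b, a stress-induced growth arrest gene, had 8.24, 8.41 and 8.18 in the controls and 7.83, 7.999 and 7.62 with PTH, a difference of -0.46 (adjusted p = 0.197).

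Markers of other cells were present in the tubes and differed between the groups. In bulk RNA, fewer cells of a type and less RNA per cell cannot be told apart. Of the red cell markers, 4 were tested and 2 were called lower with PTH, the globin genes Hba-a1 (-1.98) and Hbb-b1 (-1.89), while Epb4.2 and Klf1 were above background on no array. The summed linear signal of the neutrophil precursor list, with 11 of 12 symbols above background on all arrays and Ela2 on none, was 56543 to 57397 in the controls and 36476 to 41321 with PTH, and 6 of its 11 genes tested were called lower. The osteocyte and osteoblast list, with 11 of 14 symbols above background on all arrays and Fgf23 and Runx2 on none, summed to 42534 to 44944 and 29874 to 32216. Of its 12 genes tested 10 were below 0, and Ibsp, Mepe and Sp7 were called lower. Only Ibsp was called in every run with 1 array left out. The 2 genes above 0 were Gp38, by 0.70 with groups that did not overlap (adjusted p = 0.056), and Col1a2, by 0.01. The macrophage and osteoclast list, with 9 of 9 symbols above background on all arrays, had 22487 to 26847 in the controls and 26786 to 33963 with PTH, where Acp5 and Mmp9 were called higher, while Mrc1 and Emr1 differed by -0.80 and -0.27 with groups that did not overlap, and 4 of its 9 genes tested were below 0. The list of mesenchymal progenitors and fibroblasts, with 7 of 10 symbols above background on all arrays and Dpt and Lepr on none, had 4322 to 4966 and 5427 to 5962, where Dcn was called higher, while 4 of its 8 genes tested were below 0, among them Ly6a at -0.28 with groups that did not overlap. The endothelial list, with 7 of 8 symbols on all arrays and none missing from every array, had 1749 to 1927 and 1777 to 1851. Of its 8 genes tested 0 were called, 5 were below 0 and 3 above, and the median difference was -0.33. Vwf differed by -0.45 and Flt1 by 0.32, each with groups that did not overlap. Of the B lymphocyte markers 4 were tested and 0 were called by limma, with 1 higher and 1 lower at an unadjusted p under 0.05, while Cd79a, Dntt and Pax5 were above background on no array. Most of the 14 calls among these markers were lost when any 1 array was left out: the neutrophil list then had 1 or 2 genes called, the macrophage and osteoclast and the mesenchymal lists 0, and the red cell list its 2 globin genes, and with the replicate block or median scaling the neutrophil list had 0. The part of these cells in the values of the cell cycle genes was not tested.

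Promoters were examined because E2F sites are the classical control elements of replication genes, and cAMP response elements answer to the pathway that PTH activates. RefSeq promoters of build GRCm38.p6, running from 250 bases before to 50 after the start, were found for 52 of the 64 genes. An E2F site (TTTGGCGC, TTTGCCGC, TTTCGCGC or TTTCCCGC on either strand) was present in 15 of the 52, or 28.8%, against 2.6% of all 27025 genes in the table. Among the 14 genes with a promoter whose PTH arrays were above the controls the count was 3, or 21.4%, and these were Mcm3, Mcm6 and Cdc2a. The full cAMP response element TGACGTCA was in 4 of 52, or 7.69%, against 2.03%, and in 1 of the 14, Cdkn2b. Its shorter form TGACG, which every full element contains, was in 48.1% of the 52 and 23% of all genes. The CCAAT box was in 67.3% against 41.1%, and the cell cycle homology region TTTGAA in 26.9% against 20.2% and in 6 of the 14. A match of these letters is a description and does not show binding. The stretches before the start that hold the match are shown for Mcm6 (chr1:128359725-128359835, minus strand), Cdc2a (chr10:69353016-69353063, minus strand) and Cdkn2b (chr4:89311051-89311098, minus strand), read in the direction of transcription with the matches in capitals. Mcm6 has 3 E2F matches, of which a pair overlap in the first run of capitals, Cdc2a has 1, and Cdkn2b has a cAMP response element.
Mcm6: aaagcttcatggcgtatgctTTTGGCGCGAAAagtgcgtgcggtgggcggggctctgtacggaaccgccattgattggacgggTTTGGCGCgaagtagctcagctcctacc
Cdc2a: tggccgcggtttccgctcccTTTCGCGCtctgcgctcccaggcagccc
Cdkn2b: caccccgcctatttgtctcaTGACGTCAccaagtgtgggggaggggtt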

How the data were processed

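Per probe and array, the authors deposited an unlogged signal intensity, with no normalization or background subtraction, and a detection p-value beside each deposited intensity, exported from GenomeStudio per the labels (version not given in the sources used here). All columns of per-sample values were used. Background correction (normexp from detection p-values), an offset of 16, quantile normalization and log2 values were computed with neqc of limma 3.58.1 in R 4.3.3. Probes with a detection p under 0.05 on at least 3 of the 6 arrays were tested, 16214 in all, of which 80 of 123 cell cycle probes. PTH and control were compared with lmFit and eBayes, and p-values were adjusted over every tested probe (Benjamini-Hochberg). A gene was represented by its brightest tested probe and called at an adjusted p under 0.05 and at least 1.5-fold. Precision is limited by there being 3 arrays a group, and levels of different probes are not compared. For Cdk6 the bound sets each PTH array at the lowest signal above background, or at the probe's own signal where that is higher. Values were given in full for called genes, for the brightest, highest and lowest gene of each role, for genes whose probes disagreed in sign with one at an unadjusted p under 0.05, and for the 3 smallest p-values of the other list. The remaining genes with values by array were added after their values were seen. The genes, lists and tests were chosen with earlier results of these data known. The procedure was tested on simulated data with independent noise, and calls were required only for changes larger than that of any cell cycle gene. That test is therefore no check of differences as small as those reported here. Gene symbols were matched to the RefSeq table of GRCm38.p6, 63 directly and 1 as an older name. Probe sequences and the authors' differential scores were not used here. Summed signals of the red cell and B lymphocyte lists are not reported here.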

Additional observations from a re-analysis of the deposited data

How the results depend on the processing

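The count of called cell cycle genes was 0 under every alternative run except the methods' t-test at an unadjusted p, which called 1, Cenpi. The median difference of the cell cycle genes was above 0 in every alternative run, with 0.13 under quantile normalization alone, 0.16 with an offset of 50, 0.32 under median scaling, 0.11 without the detection filter, 0.17 over all tested probes of a gene and 0.12 to 0.18 when 1 array was left out. Of the other cell cycle list, 1 gene, Lig1, was called with a detection p under 0.01 on all 6 arrays, in the methods' t-test at an unadjusted p, and at an adjusted p under 0.1. The marker lists had 14 genes called, against 6 under median scaling, 4 with the replicate block, 4 to 6 with 1 array left out, 22 in the methods' t-test unadjusted and 8 with Benjamini-Hochberg adjustment, alternatives chosen after seeing the data. Under median scaling Cdk2 was at 0.12, Cdkn1a at 0.092, Mcm2 at 0.13 and Cenpp at 0.018, on the other side of 0 than in the report. With 1 array left out, Cdk2 ranged from -0.13 to 0.021, Cdkn1a from -0.098 to 0.027, Mcm2 from -0.094 to 0.029, E2f4 from -0.78 to 0.11, Cenpp from -0.32 to 0.21 and Mki67 from -0.054 to 0.11. The causes were not tested. With the replicate number as a block, 0 cell cycle genes were called, the smallest adjusted p was 0.149, and all genes called numbered 44 against 207. Arrays with the same number correlated at 0.067, 0.064 and 0.273 in their deviations and 2 of 6 correlated best with their own number, so the numbers were not taken as pairs. No slide was given in the labels or the table, so a slide block was not run. With all genes the called count was 48 to 78 when 1 array was left out. An exact permutation test of 3 arrays against 3 cannot give a p below 0.1.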
